A study of Homo sapiens with 4 samples.

Results

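The NRF2 antioxidant genes are a named set of 9 genes, NFE2L2, KEAP1, HMOX1, NQO1, GCLC, GCLM, TXNRD1, SRXN1 and TXN, which were picked by symbol from the 60725 genes of the count table. All 9 were found, and all 9 had at least 10 reads in at least 2 libraries, the filter that 15356 genes passed. NFE2L2 encodes NRF2, a transcription factor that KEAP1 normally binds and hands to a ubiquitin ligase for destruction. When oxidants or electrophiles modify KEAP1, NRF2 accumulates, enters the nucleus and, paired with a small MAF protein, binds antioxidant response elements in front of genes for glutathione synthesis, thioredoxin cycling, quinone reduction and heme breakdown. In the retinal pigment epithelium, which lives with light and high oxygen, this pathway is known as a main defence against oxidative damage.

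The RNA came from hTERT-RPE1, a non-tumour human line from retinal pigment epithelium that telomerase keeps dividing, in a derivative that carries the SunTag system, so every library shares that background. Control cells received the Silencer Select Negative Control No. 2 siRNA and are called scramble in the sample titles. TOP2B knockdown cells received a Dharmacon ON-TARGETplus pool of siRNAs against TOP2B, the beta form of topoisomerase II. The conditions thus differed in siRNA reagent as well as in target, and the effects of these cannot be told apart in these libraries. Each siRNA was used at 10 nM in a pair of transfections 48 h apart, RNA was collected 72 h after the second, and each condition had 2 replicates. The comparison addressed whether transcript levels changed when TOP2B was depleted.

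The 4 libraries held between 20310259 and 23887013 counted reads. TOP2B itself stood at 154.7 and 143.4 CPM (the gene's reads scaled to a common library size with TMM factors, so that 1 CPM stands for 20.2 to 24 reads) in control cells but at 15.3 and 13.3 CPM after knockdown, a log2 fold change of -3.38 (SE 0.14, edgeR adjusted p = 5.1e-06). Of 8 marker genes of retinal pigment epithelium, RPE65 and TYR had no reads in any library and RLBP1 at most 1, while BEST1, PMEL and SERPINF1 stayed at or below 2.21 CPM. The sum over the list, 51.2 to 61.1 CPM, came almost wholly from the transcription factors MITF (38.1 to 44.8 CPM) and OTX2 (11.2 to 13.4 CPM). The epithelial keratins KRT8 and KRT18 and the mesenchymal filament VIM together held 2050 to 2790 CPM. The sums over 3 leukocyte, 3 endothelial and 2 hepatocyte markers stayed at or below 0.438, 1.63 and 0.167 CPM. In bulk RNA, fewer cells of a kind and less RNA per cell cannot be told apart.

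None of the 9 NRF2 antioxidant genes was called higher and none lower after TOP2B knockdown at an adjusted p below 0.05 in the edgeR quasi-likelihood test, whereas 6.66% of all tested genes were called higher, 4.18% lower and 10.8% in either direction. DESeq2 also called 0 of the 9 and gave no adjusted p for 1 of them, SRXN1. That gene alone had an unadjusted p below 0.05 in the edgeR test above, and it passed the read filter through its control libraries alone. These results depend on leaving the replicate number out of the fit. With that number as a block, edgeR called TXN higher and NFE2L2 and SRXN1 lower, among 44.2% of all tested genes. The median log2 fold change of the 9 genes was 0.0367, beside -0.0029 over all tested genes. Of the 9 values, 6 were positive and 3 negative, beside 49.8% positive over all tested genes. The median absolute log2 fold change was 0.111 in the set and 0.238 over all tested genes, with a like median standard error in both, 0.156 and 0.158. Knockdown and control replicates did not overlap in CPM for 2 of the 9 genes, NFE2L2 and SRXN1, whereas 54.3% of all tested genes did not overlap. The 95% interval of the fold change lay within 1.5-fold in either direction for 7 genes and within 2-fold for 8, the remaining gene being SRXN1.

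**Figure D1:**
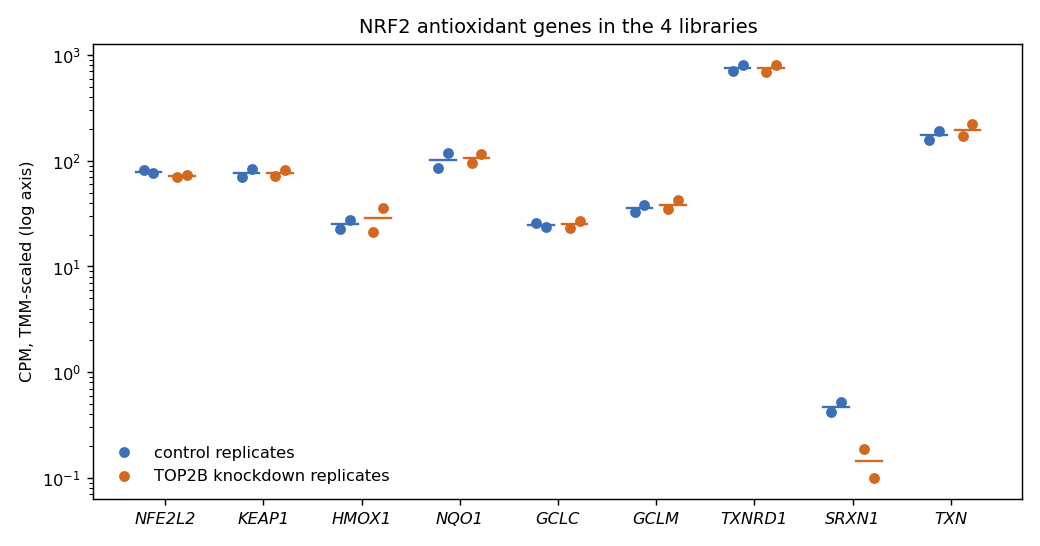
CPM of the 9 genes in the 4 libraries on a log axis, with 2 control replicates (blue) and 2 TOP2B knockdown replicates (orange) per gene and a line at each group's mean. The genes lie between 21.3 and 812 CPM with the groups close together, apart from SRXN1, which stays under 1 CPM and is lower in both knockdown replicates. Reads that SRXN1 shares with an overlapping gene are left out of its count.

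The set is defined by a shared regulator, so the promoter sequences are shown first. RefSeq promoter windows of 300 bases, from 250 bases before the transcript start, were searched on both strands for TGACNNNGC, the core of the antioxidant response element. Of 11 windows held for 8 of the genes, 4 had at least 1 match, from 3 genes, KEAP1, GCLM and TXNRD1. Counted by gene, that is 37.5% of the 8, beside 29.1% of the 55 genes with a window in the pathway lists, which include the set, and 19.5% of the 11037 tested genes that have a window. Counted by window, it is 36.4% of the 11, beside 13.3% of all 35116 windows in the table. A match describes the letters only, and the absence of one says nothing beyond the window searched. The 6 matches are shown with up to 20 bases on each side, on the strand of the gene and 5′ to 3′, with the 9 bases of the match in capitals (GRCh38.p14).
GCLM, chr1:93909436-93909484, minus strand: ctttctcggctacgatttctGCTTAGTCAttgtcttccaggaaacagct
KEAP1, chr19:10502774-10502822, minus strand: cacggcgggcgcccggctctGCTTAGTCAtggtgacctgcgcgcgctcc
KEAP1, chr19:10502797-10502845, minus strand: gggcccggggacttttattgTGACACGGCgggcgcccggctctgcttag
TXNRD1, chr12:104215660-104215708, plus strand: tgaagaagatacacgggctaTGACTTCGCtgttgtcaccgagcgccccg
TXNRD1, chr12:104215751-104215799, plus strand: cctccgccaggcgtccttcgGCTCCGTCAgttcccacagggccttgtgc
TXNRD1, chr12:104286910-104286958, plus strand: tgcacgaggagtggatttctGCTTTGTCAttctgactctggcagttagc
GCLM and KEAP1 carry the same 9 letters, GCTTAGTCA, in reverse orientation, beginning 34 and 31 bases before the start. The windows of KEAP1 overlap and come from 1 promoter, while the 3 matches of TXNRD1 come from 2 promoters.

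The regulator and its inhibitor stayed near their control levels. NFE2L2 (chromosome 2, 177218667 to 177392756, minus strand) had 81.8 and 75.8 CPM in control cells and 69.5 and 72.8 CPM in knockdown cells. Both knockdown values lay below both control values, by a log2 fold change of -0.15 (SE 0.12, 95% interval 0.754 to 1.08-fold) with an edgeR adjusted p of 0.471. Of its exon bases in the current annotation, 23.4% are shared with HNRNPA3 on the opposite strand and 13.6% with ENSG00000213963 on the same strand. Of the bases of its canonical transcript, 7.77% are shared on any strand and 0.0% on the same strand. The strand setting of the gene counts is not given in the sources used here. KEAP1 (chromosome 19, 10486125 to 10503558, minus strand), the sensor that holds NRF2 down, had 70.1 and 83.7 CPM in control cells and 71.8 and 82.7 CPM in knockdown cells. The ranges were nearly the same, with a log2 fold change of 0.0078 (SE 0.13) and a 95% interval of 0.816 to 1.24-fold.

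Neither subunit of glutamate-cysteine ligase, the rate-limiting enzyme of glutathione synthesis, passed the test. The catalytic subunit GCLC (chromosome 6, 53497341 to 53616970, minus strand) had 25.5 and 23.6 CPM in control cells and 23.2 and 27.2 CPM in knockdown cells, so that the knockdown values enclosed the control values. The modifier subunit GCLM (chromosome 1, 93885199 to 93909456, minus strand), whose promoter match is printed above, had 32.9 and 38.3 CPM against 34.6 and 42.3 CPM. The log2 fold changes were 0.0367 (SE 0.14) and 0.11 (SE 0.14), and the intervals ran from 0.831 to 1.27-fold for GCLC and from 0.867 to 1.34-fold for GCLM. The groups overlapped for both.

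The thioredoxin genes were the most abundant of the set. TXNRD1 (chromosome 12, 104215779 to 104350307, plus strand), the reductase that recharges thioredoxin with electrons from NADPH, had 714 and 812 CPM in control cells and 695 and 800.0 CPM in knockdown cells. Its replicates lay further apart than its groups, and the log2 fold change was -0.0297 (SE 0.16, 95% interval 0.77 to 1.25-fold). TXN (chromosome 9, 110243810 to 110256507, minus strand), thioredoxin itself, had 157 and 193 CPM in control cells and 171 and 224 CPM in knockdown cells. The groups overlapped, and the log2 fold change of 0.17 (SE 0.16, 95% interval 0.877 to 1.45-fold) had an edgeR adjusted p of 0.547. The annotation names 7 pseudogenes after TXN, which may share reads with it.

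SRXN1 (chromosome 20, 646615 to 653200, minus strand), which encodes sulfiredoxin, the enzyme that repairs overoxidized peroxiredoxins, stood apart from the others in level. It had 10 and 12 reads in control cells and 4 and 2 reads in knockdown cells, or 0.417 and 0.526 against 0.189 and 0.0991 CPM. It thus met the filter of 10 reads in 2 libraries through its control libraries alone. Such a gene enters the test because its control level is high, so its lower knockdown values are given as a description only. Both knockdown libraries were lower, with a log2 fold change of -1.66 (SE 0.61), an unadjusted p of 0.0223 and an adjusted p of 0.117 in edgeR, and the interval ran from 0.122 to 0.817-fold. Of its exon bases, 90.7% are shared on the same strand with ENSG00000270299, an annotated protein-coding gene without a symbol. That gene had 2 and 6 reads in control cells and 5 and 2 in knockdown cells. STAR leaves reads that overlap more than a single gene out of its gene counts, so these few reads are an uncertain measure of SRXN1, and how many reads were left out was not tested.

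NQO1 and HMOX1, widely used as readouts of NRF2 activity, did not pass the test either. NQO1 (chromosome 16, 69706996 to 69726668, minus strand), a reductase that takes quinones to hydroquinones without a radical step, had 86.2 and 117.4 CPM in control cells and 94.6 and 116.7 CPM in knockdown cells. Both knockdown values fell inside the control range, and the log2 fold change was 0.0527 (SE 0.17, 95% interval 0.802 to 1.34-fold). HMOX1 (chromosome 22, 35380361 to 35394214, plus strand), the inducible heme oxygenase, had 22.8 and 27.3 CPM in control cells and 21.3 and 35.7 CPM in knockdown cells. The knockdown replicates were the lowest and the highest of the 4, so the direction depended on the library: the log2 fold change was 0.19 (SE 0.21, 95% interval 0.819 to 1.58-fold) over all 4, -0.22 without knockdown replicate 2 and 0.52 without knockdown replicate 1, where the adjusted p was 0.0771.

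**Figure D2:**
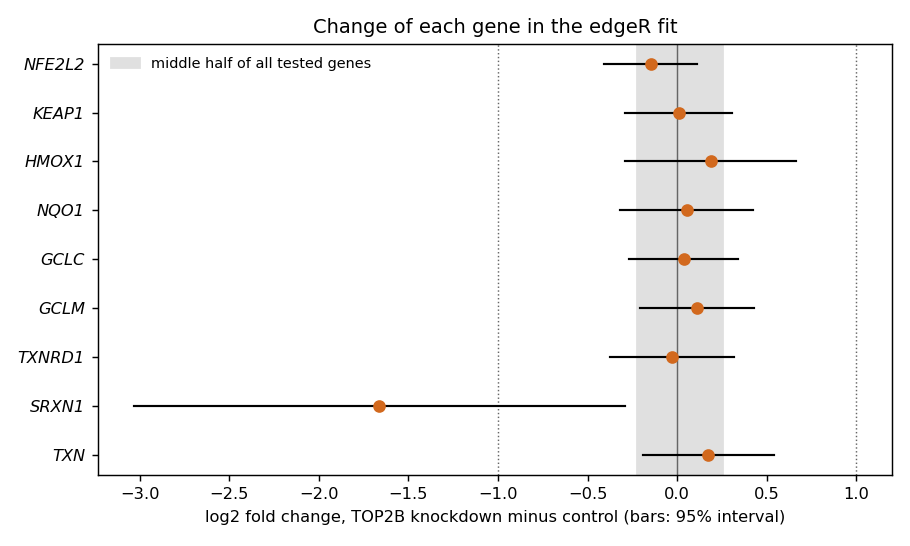
Log2 fold change of each gene in the edgeR fit (orange points) with its 95% interval (bars), where dotted lines mark 2-fold changes and the grey band runs from the lower to the upper quartile of all tested genes, -0.225 to 0.255. All points but that of SRXN1 lie inside the band, and all intervals but that of SRXN1 cross 0.

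Replicates of a condition differed visibly in these genes. The larger of the 2 replicate differences on the log2 CPM scale exceeded the fitted log2 fold change for 7 of the 9 genes, the others being NFE2L2 and SRXN1, and for 54.3% of all tested genes. A gap between single libraries is wider by construction than a difference between averages, so this count is a description only. In 6 genes, KEAP1, HMOX1, NQO1, GCLM, TXNRD1 and TXN, replicate 2 was the higher library in both conditions, as it was in 37.1% of all tested genes. HMOX1 showed the widest gap of the 8 genes other than SRXN1, 0.74 between the knockdown replicates, and NQO1 a gap of 0.45 between the control replicates. The part of this difference between replicates in the tests was not assessed beyond the fits described here.

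**Figure D3:**
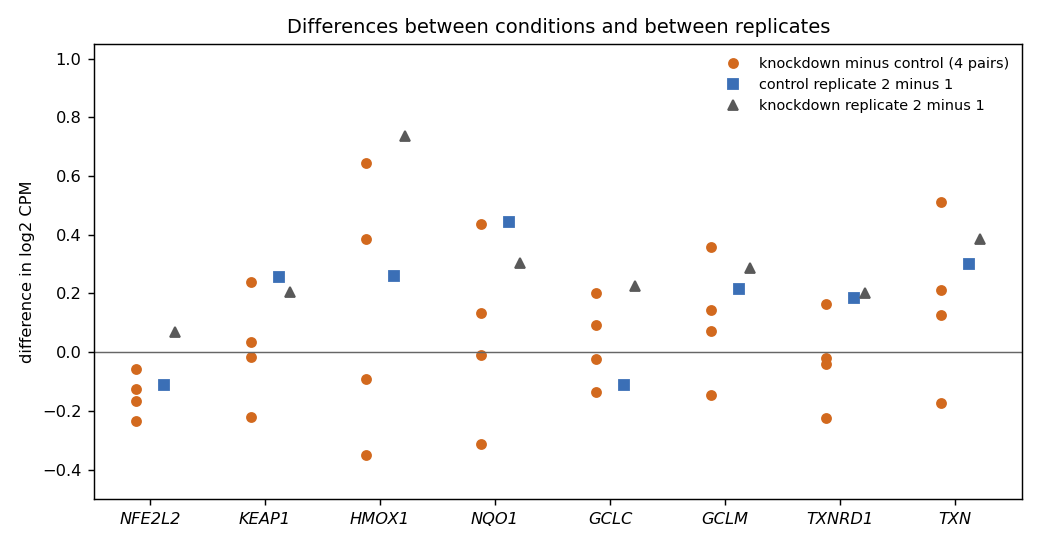
Differences in log2 CPM for 8 genes, SRXN1 left out for its low counts, with all 4 knockdown-to-control library pairings (orange), control replicate 2 minus 1 (blue squares) and knockdown replicate 2 minus 1 (grey triangles). Only for NFE2L2 do all 4 pairs lie on the same side of 0, and replicate 2 is above replicate 1 in both conditions for 6 of these genes.

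Per kilobase of the canonical transcript, control cells had most TXN, 238 CPM per kb, and TXNRD1, 198 CPM per kb. NQO1 followed with 40.4 CPM per kb, NFE2L2 with 32.2 and KEAP1 with 30.0, and the control replicates of NFE2L2 and KEAP1 overlapped. HMOX1 had 16.1 CPM per kb, GCLM 7.29 and GCLC 6.49, the last pair again overlapping. SRXN1 was lowest as counted, at 0.186 CPM per kb. Its full length was used here, although 90.7% of its bases are shared with ENSG00000270299 and shared reads are left out of the count. The order of these levels, each the mean of 2 control replicates, thus placed the thioredoxin pair above the enzymes of quinone, heme and glutathione metabolism.

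The 9 genes were then set among 69 genes in 7 lists around the pathway, of which 68 were found and 64 tested. Of the 55 tested genes outside the set, 3 were called higher and 3 lower, 10.9% in all beside 10.8% of all tested genes, and their median log2 fold change was 0.0453. Among 10 genes that control NRF2, from KEAP1 and its ligase partners to the MAF proteins and the competing factor BACH1, none passed the test (median -0.10). NFE2L1, which encodes the related factor NRF1 and had the highest mean CPM of that list, had 583 and 483 CPM in control cells and 415 and 366 CPM in knockdown cells. Its groups did not overlap, but the log2 fold change of -0.45 (SE 0.15) had an edgeR adjusted p of 0.0943, and a DESeq2 test called it (adjusted p = 0.018).

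Of 16 genes for glutathione synthesis and use, 1 was called, and 12 values were positive (median 0.17). Over all tested genes, 10.8% were called and 49.8% were positive. MGST1, a membrane-bound glutathione transferase, had 96.0 and 82.8 CPM in control cells and 155 and 129 CPM in knockdown cells. It rose by 0.67 on the log2 scale (SE 0.14, adjusted p = 0.0146). GSTP1, the most abundant of the list, had a log2 fold change of 0.37 (adjusted p = 0.164). Of 12 genes for thioredoxin and peroxiredoxin, 1 was called and 8 values were negative (median -0.05). PRDX1, a peroxiredoxin that removes hydrogen peroxide with thioredoxin as its donor, had 80.1 and 90.8 CPM in control cells and 118 and 147 CPM in knockdown cells. It rose by 0.63 (SE 0.14, adjusted p = 0.0207). Of its exon bases, 29.8% are shared with MMACHC on the opposite strand.

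Of 9 tested genes for quinone, aldehyde and ketone reduction, 1 was called (median -0.09). ALDH3A2, which oxidizes fatty aldehydes, had 44.6 and 49.5 CPM in control cells and 29.1 and 35.7 CPM in knockdown cells. It fell by 0.54 on the log2 scale (SE 0.14, adjusted p = 0.035). AKR1B1, the most abundant gene of that list, had a log2 fold change of 0.12 (adjusted p = 0.696). Of 6 genes that supply NADPH, 5 had positive values (median 0.33), beside 49.8% of all tested genes. Among them was the most abundant, TKT (0.31, adjusted p = 0.219), and none of these 5 passed the test. The sixth, IDH1, the cytosolic isocitrate dehydrogenase, had 130 and 132 CPM in control cells and 93.3 and 102 CPM in knockdown cells. It fell by 0.42 (SE 0.12, adjusted p = 0.0496).

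The 8 heme and iron genes held a call in each direction (median 0.13). FTL, the light chain of the iron store ferritin, had 402 and 513 CPM in control cells and 638 and 895 CPM in knockdown cells. It rose by 0.74 (SE 0.20, adjusted p = 0.0383), and the annotation names 16 pseudogenes after it. ABCB6, a porphyrin transporter, had 121 and 67 reads in control cells and 40 and 16 reads in knockdown cells. It fell by 1.57 on the log2 scale (SE 0.40, adjusted p = 0.0332), and both groups spread widely, from 5.05 to 2.94 and from 1.89 to 0.793 CPM. Of the bases of its canonical transcript, 94.1% are shared on the same strand with ENSG00000284820, a protein-coding gene of the current annotation that is not among the genes of the count table. Of the 3 superoxide dismutase and catalase genes tested, none passed the test, and SOD1 had a log2 fold change of -0.14 (adjusted p = 0.586).

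**Figure D4:**
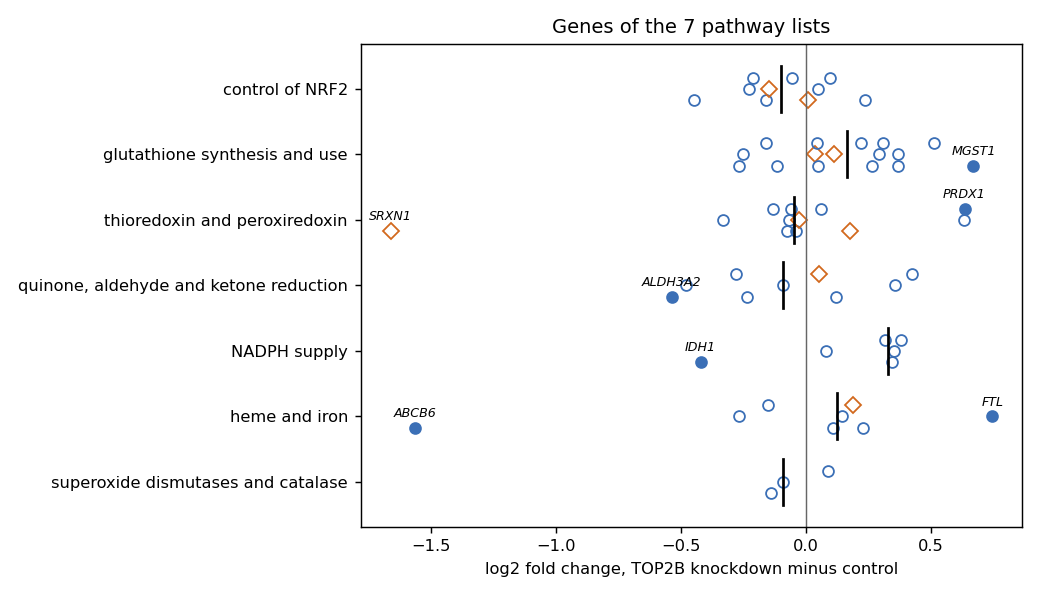
Log2 fold changes of the tested genes in 7 pathway lists, with the 9 NRF2 antioxidant genes as orange diamonds, the other genes as blue circles, filled symbols for genes called by edgeR and a black line at each list's median. The 6 filled symbols are MGST1, PRDX1 and FTL to the right of 0 and ALDH3A2, IDH1 and ABCB6 to the left, and no diamond is filled.

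These 6 calls had adjusted p from 0.0146 for MGST1 to 0.0496 for IDH1 in the main edgeR fit. DESeq2 called all 6, with adjusted p from 0.000687 for MGST1 to 0.0248 for IDH1. So did edgeR without a filter and with the replicate block, the latter calling 44.2% of all tested genes. None was called in edgeR against a change of more than 1.2-fold, with adjusted p from 0.0526 for MGST1 to 0.247 for IDH1. With a library left out, 1 sample stands against 2 and is assumed to vary like the others, so a lost call there does not show a smaller change. Leaving out a library ended the call of MGST1 without control replicate 2 (adjusted p = 0.0652) or knockdown replicate 1 (0.0589), and of ALDH3A2 without the same libraries (0.133 and 0.24). The call of PRDX1 ended without control replicate 1 (0.0635) or knockdown replicate 2 (0.115), and that of FTL without the same libraries (0.158 and 0.26) or with genes under a mean of 100 reads removed (0.0512). IDH1 was not called when any 1 of the 4 libraries was left out (0.139 to 0.345), with log2 fold changes of -0.48 to -0.35. ABCB6 stayed called in each case, with an adjusted p of at most 0.0406 and log2 fold changes from -2.32 without knockdown replicate 1 to -1.07 without knockdown replicate 2. Over these fits the log2 fold change was 0.54 to 0.80 for MGST1, 0.47 to 0.79 for PRDX1, 0.49 to 0.97 for FTL and -0.68 to -0.39 for ALDH3A2.

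Among these genes, MGST1, IDH1 and ABCB6 held the antioxidant response core in a promoter window, and they moved in different directions. They were 3 of the 5 called genes that have a window, beside 10 of 38 list genes outside the set that were not called (26.3%): CBR1, EPHX1, FECH, GSTA4, GSTP1, MAFF, ME1, PGD, RBX1 and SLC3A2. With 5 genes no difference is read from these shares. The matches of the 3 are printed in the same form as above.
MGST1, chr12:16347125-16347164, plus strand: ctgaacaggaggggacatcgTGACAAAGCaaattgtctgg
IDH1, chr2:208255186-208255234, minus strand: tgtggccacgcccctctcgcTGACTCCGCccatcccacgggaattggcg
ABCB6, chr2:219219082-219219130, minus strand: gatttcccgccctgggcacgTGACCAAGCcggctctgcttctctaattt
The match of MGST1 lies 30 bases after the transcript start, and those of IDH1 and ABCB6 begin 143 and 152 bases before it.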

How the data were processed

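The deposited table holds raw counts of reads per gene. The authors prepared TruSeq RNA LT libraries, sequenced single-end 65-bp reads, checked them with FastQC 0.11.6, aligned them to GRCh38 with STAR 2.5.4a and counted reads per gene during mapping on Gencode 24. The methods give an unstranded setting for STAR's signal output and a kit named without a strand option, but no strand setting for the gene counts, and the column names carry a paired-end stranded tag that the methods do not share. All 4 columns were present again as identical copies, and these 4 copies were not used. Symbols were matched to 98.9% of the tested genes, with positions from Gencode 44 (GRCh38) and promoters from RefSeq (GRCh38.p14).

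Genes that reached 10 counts in 2 or more libraries entered the test with edgeR 4.0.16 (glmQLFit and glmQLFTest, TMM scaling, R 4.3.3), comparing 2 knockdown with 2 control libraries. P-values were two-sided and Benjamini-Hochberg adjusted over all tested genes, with a threshold of 0.05. CPM used the scaled library sizes, in which 1 CPM was 20.2 to 24 reads, and log2 CPM differences used a prior count of 2. The script was tested on simulated data. The 9 genes, the 7 pathway lists and the marker lists were chosen with earlier results of these data known. Besides the 9 genes and TOP2B, the genes named were those called in each list, the one with the highest mean CPM and the one with the largest absolute change among genes of at least 1 CPM. The study describes the replicates as independent biological replicates of 1 cell line. DESeq2 1.42.0, other scalings and filters, a replicate block, a 1.2-fold threshold (glmTreat) and the fit without each library were run as alternatives. Intervals between 2 replicates per group are wide, and no batch is named in the labels.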

Additional observations from a re-analysis of the deposited data

How the results depend on the processing

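The number of NRF2 antioxidant genes called was 0 in each direction under library-size scaling, DESeq2 size factors, DESeq2, no filter, a mean of at least 100 counts, the 1.2-fold threshold and without each library (range 0 to 0). With the replicate number as a block, 1 gene was called higher (TXN, adjusted p = 0.0074) and 2 lower (NFE2L2, 0.0476, and SRXN1, 0.0307), in a fit that called 44.2% of all tested genes. The correlation of same-numbered deviations from the group means was 0.479. No label ties the numbers to a batch, and whether same-numbered libraries share a source was not tested with these 2 pairs. Of 95 alternative values of the 9 genes, 79 kept direction and call, 13 reversed and 3 became called. KEAP1 reversed to -0.0005 with DESeq2 size factors and -0.0088 in DESeq2. The other reversals came from leaving out a library, with log2 fold changes from -0.12 to 0.15 for KEAP1, -0.22 to 0.52 for HMOX1, -0.16 to 0.30 for NQO1, -0.0724 to 0.15 for GCLC, -0.0323 to 0.25 for GCLM, -0.13 to 0.0724 for TXNRD1 and -0.0231 to 0.36 for TXN. The cause was not tested. NFE2L2 stayed between -0.20 and -0.09. SRXN1 stayed between -2.18 and -1.29 where it could be fitted, since it failed the filter without either control library. Calls over all genes numbered 1665 in edgeR, 1555 in DESeq2, 784 against 1.2-fold, 2343 without a filter and 1210 to 1538 without a library. The median log2 fold change of all tested genes was -0.00466 with library size alone and -0.0103 with DESeq2 size factors, beside -0.0029 in the main fit. With 2 replicates per group, the spread between libraries limits these intervals, and for SRXN1 its counts of 2 to 12 reads as well.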
